A study of Urosaurus graciosus
Urosaurus ornatus and Urosaurus graciosus and Urosaurus ornatus with 18 samples.

Results

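Liver RNA of 3 male hybrid lizards held at 40 °C was set against that of 3 male U. ornatus held at the same temperature, which is 6 of the 18 libraries of the study. The libraries were chosen by their labels alone, and each gene was compared across all 15856 genes tested. The whole study covers 3 lineages of the lizard genus Urosaurus, hybrids, U. graciosus and U. ornatus, with 3 animals of each at 40 °C and 3 others of each at 36 °C. Every animal was male, every sample was liver, and every exposure lasted 48 h. The hybrids are named I, K and X here and the U. ornatus L, N and O, after the letters in their labels. The labels give both parent species for the hybrids, and the series title says that hybrids carry introgressed mitochondrial DNA. No source used here gives the generation of the hybrids, which animal carries which mitochondrial genome, or whether the animals are related. The comparison is therefore limited to these animals. Its tests take the spread between animals from all 18 libraries of the study together, not from these 6 alone.

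Hybrids combine nuclear alleles of both parents with a mitochondrial genome that comes from one of them. The respiratory chain is assembled from nuclear and mitochondrial gene products, and electrons that leak from it form superoxide, which superoxide dismutases turn into hydrogen peroxide and which catalase, glutathione peroxidases and peroxiredoxins then remove. The liver is also the source of most plasma proteins, breaks down amino acids, makes and stores glucose, and houses resident immune cells. The series asks whether expression of antioxidant genes differs in hybrids.

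The 6 libraries held 15780346 to 27737101 counts (27282135, 27737101 and 20080212 in hybrids I, K and X, and 24870400, 24825980 and 15780346 in U. ornatus L, N and O). Reads of all lineages were aligned to the genome of another genus, so a difference in sequence match and a difference in expression cannot be told apart. On the first principal component of these 6 libraries, with 47.9% of the variance, the hybrids scored -86.0, -73.0 and -72.9 and the U. ornatus 71.9, 83.3 and 76.7. Hybrid X stood apart on the next component, with 27.5% of the variance, at -113 against 54.4 and 53.9 for I and K and -33.9 to 25.5 for the U. ornatus. Log2 CPM, where CPM is the count as a share of the scaled total, correlated at 0.970 between I and K and at 0.881 between X and either of them. Of 20 hepatocyte markers, 18 were in the table and 17 were tested. Their summed level was 142234, 117431 and 35792 CPM in hybrids (I, K, X), against 73958, 69822 and 43809 CPM in U. ornatus (L, N, O). CPS1, a urea cycle enzyme, was the one hepatocyte marker at 0 counts in U. ornatus. Hepatocyte markers were thus abundant in all 6 livers, as the tissue label says, and X and O had the lowest sums.

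Hybrids and U. ornatus at 40 °C differed in 2920 of 15856 genes (18.4%), of which 1530 (9.65%) were higher and 1390 (8.77%) lower in hybrids by edgeR's quasi-likelihood test on the deposited counts. A gene is called here when its Benjamini-Hochberg adjusted p over all genes tested was under 0.05. The differences were large: 1203 of the higher and 1079 of the lower genes passed 1 on the log2 scale, and 356 and 362 passed 3. The median difference over all genes tested was 0.04, a value that the scaling of the libraries holds near 0. Genes with symbols were called in 18.6% of cases and genes with placeholder names in 18%. Values of the 3 hybrids lay wholly above those of the 3 U. ornatus in 2502 genes (15.8%) and wholly below in 2564 (16.2%). The count was 3222 without hybrid X and 1682 without U. ornatus N. A fit of these 6 libraries alone, with its own filter and spread and 14891 genes tested, gave 497. Higher and lower genes numbered 1179 and 847 without I, 1259 and 967 without K, and 1705 and 1517 without X. They numbered 1012 and 992 without L, 823 and 859 without N, 1119 and 1104 without O, and 235 and 262 in the fit of 6. List counts from these runs, given below, are to be read beside these totals.

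Most of these differences were also seen at 36 °C, in 3 other hybrids and 3 other U. ornatus. At 36 °C 9.74% of genes were higher and 8.71% lower in hybrids. Of the 2920 genes called at 40 °C, 2757 (94.4%) had the same direction at 36 °C, against 73.7% of all genes tested. The call itself was made at 36 °C, in the same direction, for 1473, which is 50.4% of the genes called at each temperature, and in the opposite direction for 4. The hybrid difference at 40 °C correlated with that at 36 °C across genes at r = 0.72 (15856 genes of the same 12 libraries, which are not independent replicates). No gene passed in the test of whether the difference itself changed with temperature, although 1529 genes (9.64%) had an unadjusted p under 0.05 in edgeR, and DESeq2 called 93 and limma voom 1. A call at 40 °C without one at 36 °C therefore does not show that the difference depends on temperature.

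**Figure D1:**
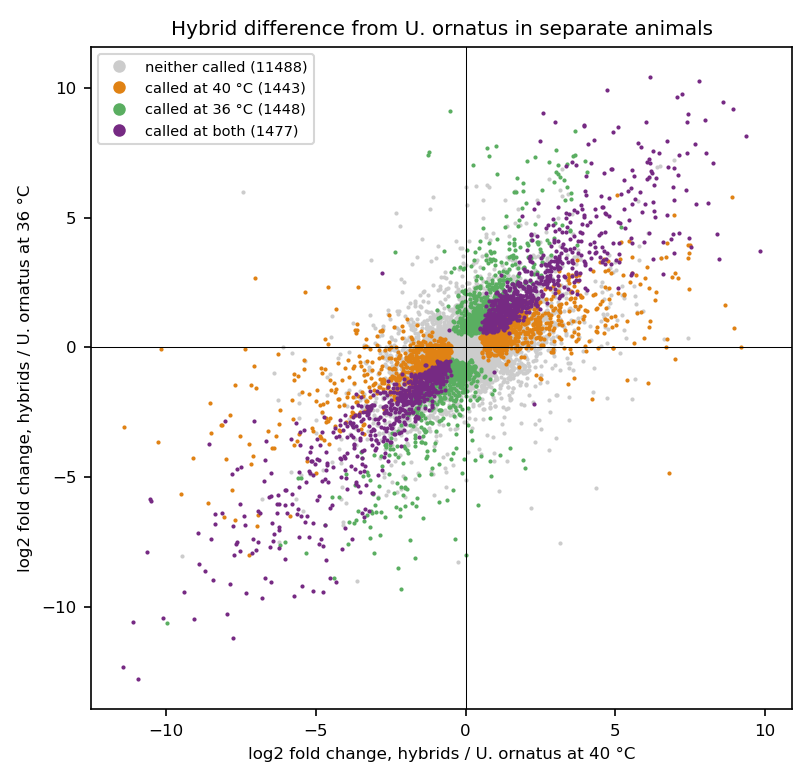
Log2 fold change of hybrids over U. ornatus at 40 °C (horizontal axis) and at 36 °C (vertical axis), 1 point per gene tested, from separate animals at each temperature. Colours give the genes called at an adjusted p under 0.05 at both temperatures (1477, of which 1473 in the same direction), at 40 °C alone (1443), at 36 °C alone (1448) or at neither (11488).

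The genes with the largest higher values in hybrids were near or at 0 counts in U. ornatus. CALML4, a calmodulin-like protein, had 25, 15.4 and 12.5 CPM in hybrids (I, K, X), against 0.0733, 0 and 0.0936 CPM in U. ornatus (L, N, O). ACBD7, an acyl-CoA binding domain protein, had 66.6, 38.9 and 34.2 CPM in hybrids and 0.366, 0.136 and 0 CPM in U. ornatus. Every hybrid was far above every U. ornatus for both genes, with log2 differences of 8.27 ± 0.68 and 8.01 ± 1.05 (SE, n = 3 each, adjusted p = 1.23e-05 and 0.000307). Fitted differences of genes near 0 counts shift with single animals, here to 7.65 for CALML4 without N and 9.15 for ACBD7 without L. KIF4A, a kinesin that condenses and moves chromosomes, had the smallest p among the genes that were higher. It had 32.5, 48.0 and 22.6 CPM in hybrids and 0.953, 0.886 and 0.468 CPM in U. ornatus, a difference of 5.45 ± 0.40 (adjusted p = 5.39e-06). NCAPD2, a condensin subunit, had 55.9, 74.7 and 44.4 CPM in hybrids against 13.5, 15.2 and 13.8 CPM in U. ornatus (2.04 ± 0.19, adjusted p = 3.82e-05), again with no overlap. ACOT12, a liver acetyl-CoA thioesterase, had 8.19, 10.7 and 6.71 CPM in hybrids and 0.147, 0.170 and 0.0936 CPM in U. ornatus (5.89 ± 0.64, adjusted p = 0.000105).

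Others of these genes were uneven among the hybrids. TNC, the matrix protein tenascin C, had 7.15, 4.99 and 281 CPM in hybrids (I, K, X) and 0.220, 0.851 and 0.515 CPM in U. ornatus, so that X was far above the other hybrids. GGT7, of the gamma-glutamyltransferase family, had 127, 53.6 and 20.1 CPM in hybrids and 1.10, 0 and 0.375 CPM in U. ornatus, with X the lowest hybrid. RET, the receptor tyrosine kinase for ligands of the GDNF family, had 4.18, 5.23 and 13.7 CPM in hybrids against 0.0733, 0.0681 and 0 CPM in U. ornatus. All 3 kept their call without any 1 of the 6 animals, at 7.5 ± 1.41, 7.07 ± 1.46 and 7.13 ± 0.85 (adjusted p = 0.00286, 0.00501 and 0.000156). Without X the difference of TNC was 3.52 and that of RET 6.43, and GGT7 was at 6.22 without I, 8.61 without L and 6.46 without N. EYA4, a transcriptional coactivator, the exchanger SLC24A2, ELAPOR2, DOK5 and OLFML3 were higher by 6.97, 7.66, 7.41, 6.74 and 3.22, each with no overlap. FMOD, a small collagen-binding proteoglycan (6.97 ± 1.75), was not called without N (6.49, adjusted p = 0.0581), and RP1, a photoreceptor microtubule protein (6.99 ± 1.77), was not called without L (6.44, 0.0541) or N (6.41, 0.0592).

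Of the genes called, 51 had 0 counts in all 3 U. ornatus at 40 °C, and 26 of these had symbols. IL1RAPL1, a synaptic receptor accessory protein, had 353 counts over the hybrids (5.52, 7.25 and 1.33 CPM in I, K and X) and 0 over the U. ornatus, which is at least 118-fold higher in hybrids when 3 counts over the group are taken as the floor. At 36 °C it had 151 counts in hybrids and 9 in U. ornatus, and U. graciosus at 40 °C had 0. CALB1, the calcium-binding protein calbindin, had 155 counts in hybrids and 0 in U. ornatus, at least 51.8-fold higher. Its 3 hybrids had 3.76, 1.54 and 0.909 CPM, and at 36 °C U. ornatus had 65 counts. Of the 51 genes, 18 also had 0 counts in the U. ornatus at 36 °C, and the rest had some.

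The genes with the largest lower values in hybrids were likewise close to absent, here from the hybrids. DNAH5, a dynein of motile cilia, had 0.251, 0.238 and 0.490 CPM in hybrids (I, K, X) and 86.5, 91.0 and 54.3 CPM in U. ornatus (L, N, O). SLC16A4, of the monocarboxylate transporter family, had 0.585, 0.0792 and 0.105 CPM in hybrids and 99.1, 78.9 and 88.0 CPM in U. ornatus. GFRA3, the receptor for artemin, had 4.18, 3.64 and 0.490 CPM in hybrids and 605, 399 and 334 CPM in U. ornatus. Every hybrid was far below every U. ornatus in these 3 genes, with differences of -7.85 ± 0.65, -8.45 ± 0.89 and -7.33 ± 1.10 (adjusted p = 1.23e-05, 8.41e-05 and 0.000722). Without I, SLC16A4 was at -9.82. At 36 °C the differences were -9.12, -8.95 and -9.46. ATP6V1B1, a subunit of the proton pump of vesicles, L3MBTL1, a chromatin reader, and KCNA7, a potassium channel, were at -8.68, -7.76 and -7.52 on the log2 scale, each with no overlap. KCNA7 was at -10.1 without K and -6.85 without O, and ATP6V1B1 was at -8.06 without X. LMOD3, an actin-nucleating muscle protein, rested on U. ornatus N, at 12.3 CPM against 0.440 and 0.281 in L and O and 0, 0 and 0.0699 CPM in the hybrids. Its difference was -7.17 ± 1.71 and -3.61 without N (adjusted p = 0.0902), and -6.71 without I (0.0515).

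Of the genes called, 60 had 0 counts in all 3 hybrids at 40 °C. CACNA2D3, a calcium channel subunit, had 0 counts in hybrids and 1110 in U. ornatus (31.9, 1.16 and 9.60 CPM in L, N and O), at least 369-fold lower in hybrids with the same floor of 3 counts. Its call (adjusted p = 0.0368) was lost without any 1 of I, K, X, L or O, with adjusted p of 0.0840, 0.0809, 0.0826, 0.0830 and 0.0547. TCFL5, a transcription factor of germ cells in mammals, had 0 and 825 counts, at least 274-fold lower in hybrids. FAIM2, an inhibitor of Fas-mediated death, had 0 and 631 counts, AVPR1B, a vasopressin receptor, 0 and 429, and GAD1, which makes GABA, 0 and 200, at least 210-fold, 143-fold and 66.5-fold lower in hybrids. U. ornatus was itself uneven in several of them, with AVPR1B at 11.7, 0.204 and 4.92 CPM and FAIM2 at 1.83, 16.8 and 4.07 CPM in L, N and O. In the hybrids at 36 °C, 30 of the 60 genes were also at 0 counts, and in U. graciosus at 40 °C 21 were.

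**Figure D2:**
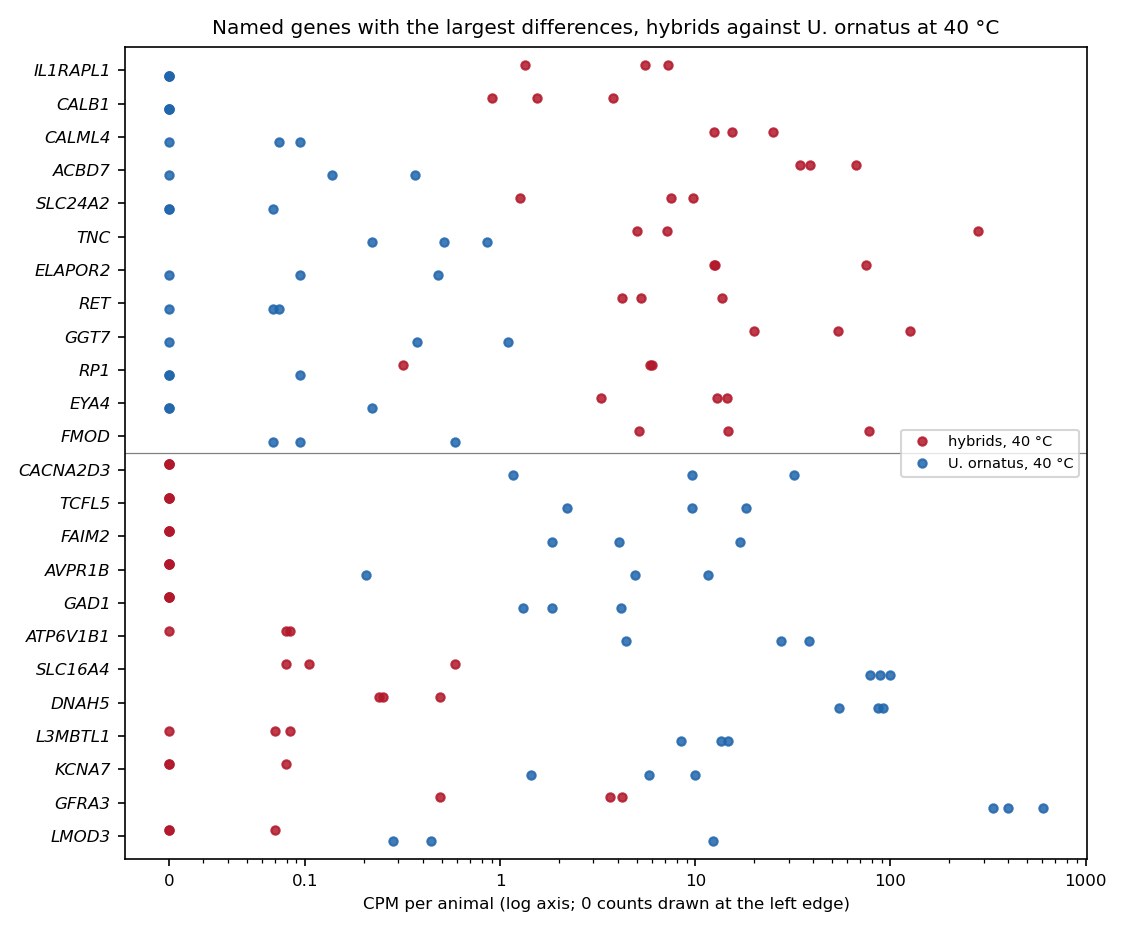
CPM in each of the 3 hybrids (red) and 3 U. ornatus (blue) at 40 °C, on a log axis, for the 12 largest higher (top) and 12 largest lower (bottom) differences among named genes, with 0 counts drawn at the left edge. In the top genes most U. ornatus points lie under 1 CPM and in the bottom genes the hybrids do, except GFRA3, where 2 hybrids lie at 4.18 and 3.64 CPM.

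Among the genes with the smallest p, several that were lower in hybrids were expressed in both lineages with little spread. ABCC10, an exporter of the multidrug resistance family, had 27.9, 24.2 and 16.6 CPM in hybrids and 116, 95.3 and 90.3 CPM in U. ornatus (-2.14 ± 0.20, adjusted p = 3.74e-05). ZBTB24, a zinc finger protein required for DNA methylation of satellite repeats, had 6.94, 6.02 and 6.99 CPM in hybrids and 29.2, 30.1 and 27.0 CPM in U. ornatus (-2.11 ± 0.21, adjusted p = 4.58e-05). FCHSD1, a membrane-curving protein, had 5.01, 8.12 and 7.52 CPM in hybrids and 31.3, 27.7 and 23.6 CPM in U. ornatus (-2.0 ± 0.20, adjusted p = 5.71e-05). None of the 3 genes overlapped between the lineages, and each was also lower in hybrids at 36 °C, at -1.03, -1.89 and -1.91 (adjusted p = 0.00251, 7.33e-05 and 7.31e-05).

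Antioxidant genes were called in both directions. In the fit of all 18 libraries their shares were near or under those of all genes, but not in every alternative run. Of 75 genes in 7 lists, 64 were tested, 6 were higher in hybrids (9.38% against 9.65% of all genes) and 3 were lower (4.69% against 8.77%), with a median difference of 0.27 against 0.04 over all genes. The superoxide dismutases went in different directions. SOD2, the mitochondrial manganese enzyme, had 193, 194 and 160 CPM in hybrids (I, K, X) and 81.5, 80.6 and 72.8 CPM in U. ornatus (L, N, O). SOD3, the extracellular enzyme, had 24.4, 50.4 and 71.8 CPM in hybrids and 413, 353 and 404 CPM in U. ornatus. The lineages did not overlap in either gene, with SOD2 higher by 1.22 ± 0.24 (adjusted p = 0.00403) and SOD3 lower, at -3.00 ± 0.45 on the log2 scale (adjusted p = 0.000730). SOD1, the cytosolic copper-zinc enzyme, also did not overlap, at 627, 723 and 435 CPM in hybrids and 420, 344 and 357 CPM in U. ornatus, but did not pass (0.67 ± 0.32, adjusted p = 0.158). At 36 °C the difference was -3.56 for SOD3 (adjusted p = 0.000201) and 0.26 for SOD2 (0.472), and the difference between the temperatures did not pass for SOD2 (0.95 ± 0.34, adjusted p = 0.405).

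Of the 6 peroxiredoxins, which reduce peroxides, 2 were higher in hybrids (33.3% against 9.65% of all genes) and all 6 had positive differences. PRDX5, which works in mitochondria and peroxisomes, had 88.5, 92.7 and 63 CPM in hybrids and 41.0, 36.8 and 42.2 CPM in U. ornatus (1.02 ± 0.22, adjusted p = 0.00703). PRDX6, which also repairs oxidised phospholipids, had 149, 134 and 117 CPM in hybrids and 66.9, 43.8 and 62.0 CPM in U. ornatus (1.21 ± 0.25, adjusted p = 0.00512). Both were without overlap, and at 36 °C their differences were 1.01 (0.00667) and 0.09 (0.838). The mitochondrial PRDX3 had 334, 261 and 136 CPM in hybrids and 132, 171 and 80.4 CPM in U. ornatus, which overlapped and did not pass (0.93 ± 0.39, adjusted p = 0.105). Without hybrid X it was at 1.24 (adjusted p = 0.0304). None of the 6 tested genes of catalase and the glutathione peroxidases passed. CAT, the catalase, had 3151, 4273 and 1764 CPM in hybrids and 2045, 1736 and 554 CPM in U. ornatus (1.08 ± 0.51, adjusted p = 0.150), and GPX4, which reduces lipid peroxides, 302, 276 and 272 against 147, 180 and 116 CPM (0.94 ± 0.34, adjusted p = 0.0633).

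In the glutathione group 2 of 14 genes were higher (14.3% against 9.65% of all genes). GCLM, the modifier subunit of the enzyme that starts glutathione synthesis, had 70.0, 70.8 and 66.0 CPM in hybrids and 41.7, 49.1 and 39.7 CPM in U. ornatus (0.66 ± 0.20, adjusted p = 0.0311). MGST1, a microsomal glutathione transferase, had 158, 234 and 85.8 CPM in hybrids and 88.8, 71.3 and 37.7 CPM in U. ornatus, where X lay below L (1.27 ± 0.38, adjusted p = 0.0289). Both calls were lost without single animals, I, K, L or O for GCLM (0.65, 0.64, 0.63 and 0.62) and I, K, N or O for MGST1 (1.28, 0.88, 1.33 and 1.01). In the group of NRF2, the factor that induces antioxidant genes, and of NADPH supply, 2 of 15 were lower. That is 13.3%, against 8.77% of all genes. NQO1, a quinone reductase and NRF2 target, was low in both lineages, at 1.0, 0.950 and 1.12 CPM in hybrids and 6.41, 6.34 and 2.81 CPM in U. ornatus (-2.34 ± 0.46, adjusted p = 0.00361). BLVRA, which makes bilirubin, had 22.4, 19.7 and 21.9 CPM in hybrids and 70.1, 64.7 and 35.5 CPM in U. ornatus (-1.41 ± 0.34, adjusted p = 0.0122). NFE2L2, which encodes NRF2, had 98.4, 121 and 75.9 CPM in hybrids and 148, 144 and 77.8 CPM in U. ornatus and did not pass (-0.33 ± 0.35, adjusted p = 0.552).

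Hybrid X set some antioxidant calls. MSRB3, a methionine sulfoxide reductase, had 4.93, 4.99 and 23.0 CPM in hybrids (I, K, X) and 2.05, 3.61 and 4.31 CPM in U. ornatus, a difference of 1.73 ± 0.54 (adjusted p = 0.0372) that was 0.59 without X (0.316), and that was not called without L (1.47, 0.123), N (1.79, 0.0864) or O (1.96, 0.0527) either. TXNRD1, the cytosolic thioredoxin reductase, had 7.40, 9.30 and 36.4 CPM in hybrids and 28.7, 37.8 and 32.6 CPM in U. ornatus. It did not pass (-0.90 ± 0.44, adjusted p = 0.163) but was at -1.97 without X (0.000462). The number of antioxidant genes called was 18 without X, against 9 with it, and 3 in the fit of these 6 libraries alone. Over all genes those runs called 3222 of 16145, 2920 of 15856 and 497 of 14891. Without X the antioxidant share was thus above that of all genes.

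**Figure D3:**
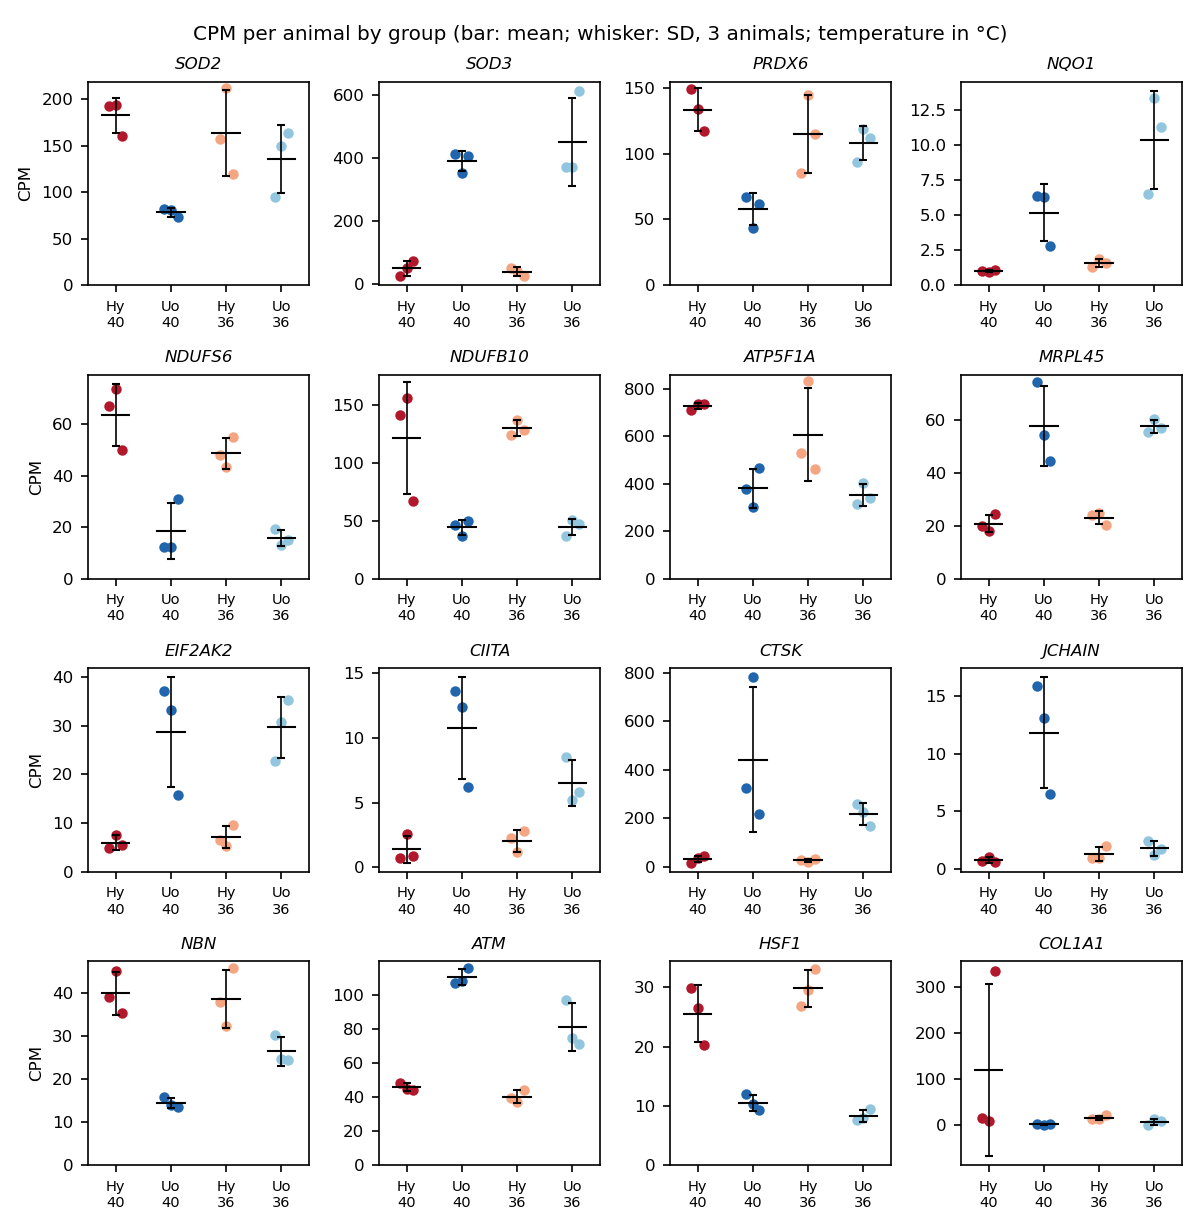
CPM of 16 genes in each animal, with the mean (bar) and SD (whisker) of 3 animals, for hybrids (Hy) and U. ornatus (Uo) at 40 °C and at 36 °C. SOD3, NQO1, MRPL45, EIF2AK2, CIITA, CTSK, JCHAIN and ATM lie lower in the 3 hybrids at 40 °C than in the 3 U. ornatus, and the other 8 genes lie higher, COL1A1 most of all in hybrid X.

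Nuclear genes of the respiratory chain were called higher in hybrids and none was called lower. Of 36 tested subunits of complex I, which takes electrons from NADH, 10 were higher (27.8% against 9.65% of all genes), 30 had positive differences and the median was 0.48. NDUFS6 and NDUFS4, accessory subunits needed to finish the complex, had 67.2, 73.8 and 50.1 CPM and 45.7, 44.9 and 37.7 CPM in hybrids, against 12.2, 12.4 and 31.1 CPM and 21.0, 14.6 and 16.9 CPM in U. ornatus. NDUFB10, of the membrane arm, had 141, 156 and 66.5 CPM in hybrids and 46.4, 36.9 and 49.5 CPM in U. ornatus. Hybrids lay above U. ornatus in all 3 genes without overlap, by 1.78 ± 0.35, 1.29 ± 0.20 and 1.45 ± 0.28 (adjusted p = 0.00376, 0.000974 and 0.00369). Without O, NDUFS6 was at 2.39. At 36 °C the differences were 1.63, 0.67 and 1.54, all called, and in all 6 of 36 subunits were higher and none lower. NDUFA9, an accessory subunit at the quinone site, was higher by 1.18 ± 0.24 at 40 °C (adjusted p = 0.00474) and at 0.27 at 36 °C (0.463). The number of subunits called was 6 without I, 6 without K and 5 without N, and 1 in the fit of these 6 libraries alone. Genes called higher over all genes also fell in these runs, from 1530 to 1179, 1259, 823 and 235.

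For complexes II to V, 17 of 39 listed genes were tested. The other members, among them the COX and UQC genes of complexes IV and III, were not analysed here. All 17 had positive differences, with a median of 0.70. Of the 17 genes, 5 were higher (29.4% against 9.65% of all genes), all of them in ATP synthase. With those members missing, the calls do not set ATP synthase apart from complexes III and IV. ATP5F1A and ATP5F1B, the alpha and beta subunits of its catalytic head, had 713, 738 and 736 CPM and 1076, 1293 and 1195 CPM in hybrids, against 380, 301 and 465 CPM and 651, 531 and 821 CPM in U. ornatus. The 3 hybrids were within a narrow range in both genes and above every U. ornatus (0.93 ± 0.27 and 0.83 ± 0.27, adjusted p = 0.0252 and 0.0401). ATP5MC2, of the membrane ring, had 99.1, 117 and 83.1 CPM in hybrids and 65.5, 46.7 and 36.2 CPM in U. ornatus (1.01 ± 0.25, adjusted p = 0.0123). Without I, K, L or N in turn, 1 of the 5 genes remained called each time, since ATP5F1A, ATP5F1B and the subunits ATP5F1E (1.01 ± 0.29) and ATP5PF (0.91 ± 0.28) lost their calls, at 0.69 to 1.04 on the log2 scale. The mitochondrially encoded genes were not analysed here.

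Genes that build and serve the mitochondrial complexes were also called higher more often than lower. Of 19 tested assembly factors 4 were higher (21.1% against 9.65% of all genes) and none lower. SDHAF2, which adds the flavin to succinate dehydrogenase, had 32.3, 29.4 and 32.6 CPM in hybrids and 11.3, 8.11 and 10 CPM in U. ornatus (1.68 ± 0.26, adjusted p = 0.000872), and at 36 °C it was at 1.73 (0.000566). Of 52 tested genes for expression and upkeep of mitochondrial DNA, 7 were higher and 1 lower (13.5% and 1.92%, against 9.65% and 8.77% of all genes). ELAC2, which cuts the 3' ends of transfer RNA precursors, had 31.3, 29.1 and 28.5 CPM in hybrids and 15.1, 15.0 and 15.7 CPM in U. ornatus (0.96 ± 0.15, adjusted p = 0.000810). MRM3, a methyltransferase of the large mitochondrial ribosomal RNA, had 13.7, 16 and 10 CPM in hybrids and 2.34, 4.50 and 3.84 CPM in U. ornatus (1.89 ± 0.30, adjusted p = 0.000991). In both genes the lineages were apart. POLG2, the accessory subunit of the mitochondrial DNA polymerase, was the lower one, with 2.05, 2.57 and 4.06 CPM in hybrids and 5.39, 6.06 and 9.18 CPM in U. ornatus (-1.24 ± 0.35, adjusted p = 0.0238), and was not called without I (-1.05), K (-1.17) or O (-0.97). Called assembly factors numbered 2 without L or O and 1 without N, and the higher expression genes 3 without I, K or L, 2 without N and 4 without O.

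In the mitochondrial ribosome, which translates the mitochondrial genes, 18 of 76 proteins were higher (23.7%) and 3 lower (3.95%), with a median of 0.25. Over all genes the shares were 9.65% and 8.77%. DAP3, of the small subunit, had 96.1, 124 and 103 CPM in hybrids and 54.0, 52.6 and 43.5 CPM in U. ornatus (1.10 ± 0.19, adjusted p = 0.00180). MRPS5 had 64.6, 65 and 59.9 CPM in hybrids and 24.1, 25 and 35 CPM in U. ornatus (1.17 ± 0.21, adjusted p = 0.00206). MRPL45, of the large subunit, went the other way without overlap, at 19.8, 18.2 and 24.3 CPM in hybrids and 74.4, 54.4 and 44.7 CPM in U. ornatus (-1.48 ± 0.19, adjusted p = 0.000280). At 36 °C 8 were higher and 7 lower, and 8 of the 21 called at 40 °C were called in the same direction. Without N, 10 were higher and 2 lower, and in the fit of these 6 libraries alone 1 and 1. The cytosolic ribosome gave 0 higher and 1 lower of 73 with a median of 0.05, and the lower one, RPL39, had 172, 207 and 191 CPM in hybrids and 360, 318 and 327 CPM in U. ornatus (-0.82 ± 0.26, adjusted p = 0.0364). That call was lost on leaving out any 1 of the 6 animals, at -0.75, -0.89, -0.81, -0.76, -0.86 and -0.82 without I, K, X, L, N and O.

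Of 37 tested carriers and import factors, 5 were higher (13.5% against 9.65% of all genes) and none lower. Of 14 mitochondrial chaperones and proteases, 2 were higher (14.3%) and none lower. SLC25A3, which brings phosphate into the matrix for ATP synthesis, had 638, 662 and 507 CPM in hybrids and 307, 234 and 216 CPM in U. ornatus (1.25 ± 0.27, adjusted p = 0.00557). HSPA9 and TRAP1, HSP70 and HSP90 chaperones of the matrix, had 385, 353 and 682 CPM and 88.7, 83 and 160 CPM in hybrids, against 167, 172 and 250 CPM and 46.9, 34.3 and 61.1 CPM in U. ornatus. X was the highest hybrid in both chaperones, and no hybrid overlapped U. ornatus (1.27 ± 0.33 and 1.22 ± 0.31, adjusted p = 0.0158 and 0.0143). The call was lost without L (1.17) or N (1.18) for HSPA9 and without N (1.04) for TRAP1. Carriers and import factors called higher numbered 9 without X, 3 without K, 2 without O and 1 without N.

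**Figure D4:**
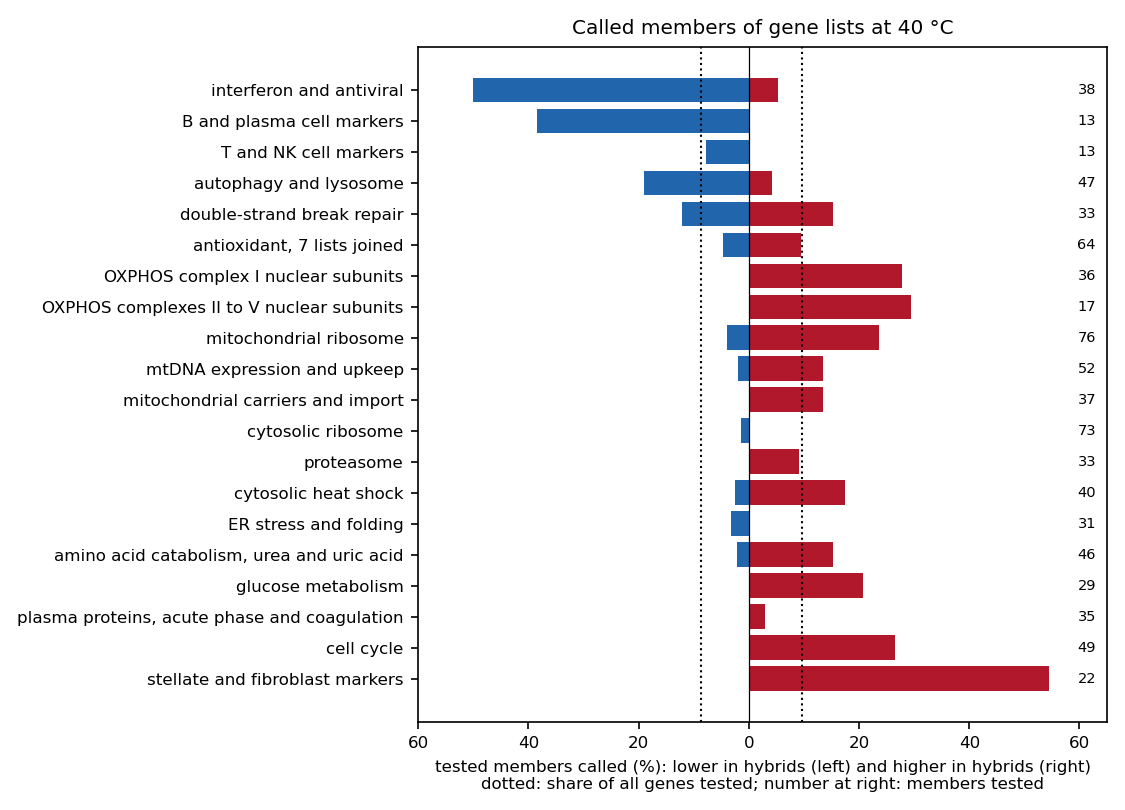
Share of the tested members of 20 gene lists that were called lower (left, blue) or higher (right, red) in hybrids than in U. ornatus at 40 °C, with the number of members tested at the right edge. Dotted lines mark the shares over all genes, 8.77% lower and 9.65% higher. Interferon and antiviral genes reach 19 of 38 lower, and stellate cell and fibroblast markers 12 of 22 higher.

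Interferon and antiviral genes were called lower in hybrids more often than higher. Of 38 tested, 19 were lower (50% against 8.77% of all genes), 2 were higher, and the median was -1.05. Type I interferon signals through the receptor chains IFNAR1 and IFNAR2. IFNAR1 had 4.72, 4.28 and 10.6 CPM in hybrids (I, K, X) and 18.4, 28.5 and 18.2 CPM in U. ornatus (-1.73 ± 0.34, adjusted p = 0.00408). TLR7, a sensor of viral RNA in endosomes, had 5.39, 5.54 and 3.29 CPM in hybrids and 14.1, 21.3 and 14.9 CPM in U. ornatus (-1.83 ± 0.39, adjusted p = 0.00554). EIF2AK2, the kinase PKR that halts translation on double-stranded RNA, had 4.85, 7.64 and 5.52 CPM in hybrids and 37.1, 33.3 and 15.8 CPM in U. ornatus (-2.26 ± 0.37, adjusted p = 0.00120). All 3 were without overlap and kept their call without any 1 of the 6 animals. STING1, the adaptor for cytosolic DNA, was named after its values were seen, and had 1.0, 2.22 and 0.979 CPM in hybrids against 13.3, 17.5 and 3.84 CPM in U. ornatus (-3.04 ± 0.68, adjusted p = 0.00765).

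The same list holds genes of antigen presentation, 3 of which are described here. CIITA, the activator of MHC class II genes, had 0.752, 2.53 and 0.839 CPM in hybrids and 13.6, 12.4 and 6.23 CPM in U. ornatus (-2.96 ± 0.57, adjusted p = 0.00340). CD74, the invariant chain of MHC class II, and PSMB8, a subunit of the immunoproteasome, were named after their values were seen. CD74 had 63.3, 259 and 81.9 CPM in hybrids and 854, 1248 and 173 CPM in U. ornatus, where K lay above O (-2.49 ± 0.76, adjusted p = 0.0327). PSMB8 had 4.60, 10.3 and 1.96 CPM in hybrids and 73.4, 70.2 and 11 CPM in U. ornatus (-3.20 ± 0.79, adjusted p = 0.0129). U. ornatus O was the lowest of its lineage in each of these, and nearest to the hybrids. Without K the differences of CIITA, CD74 and PSMB8 were -3.74, -3.38 and -3.98. IRF7, a factor that amplifies the interferon response, and HERC3 were the exceptions, with 6.69, 4.99 and 6.78 CPM and 89.7, 90.8 and 80.8 CPM in hybrids, against 0.696, 2.15 and 1.36 CPM and 58.4, 53.2 and 37.1 CPM in U. ornatus (2.13 ± 0.61 and 0.81 ± 0.18, adjusted p = 0.0263 and 0.00713).

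At 36 °C, 8 of the 38 genes were lower and 1 higher, with a median of -0.85, and 9 of the 21 genes called at 40 °C were called in the same direction. CD74 was not called without I, X, L or N (-2.15, -2.21, -2.40 and -1.93). IRF7 was not called without I (2.07), L (1.81) or O (2.12). The number of lower genes in the list was 11 without I, 12 without L and 9 without N, and 3 in the fit of these 6 libraries alone.

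Lists of immune cell and blood cell markers had negative medians like the interferon list, and their part in it was not tested. B and plasma cell markers were lower in 5 of 13 (38.5% against 8.77% of all genes) and higher in none, with a median of -1.46. Their summed level was 34.0, 41.5 and 52.7 CPM in hybrids and 86.1, 90.4 and 42.0 CPM in U. ornatus, so O lay among the hybrids. JCHAIN, the joining chain of secreted antibodies, had 0.669, 1.03 and 0.629 CPM in hybrids and 15.9, 13.1 and 6.51 CPM in U. ornatus (-3.92 ± 0.54, adjusted p = 0.000404). CD79B, of the B cell receptor, had 1.21, 0.752 and 1.68 CPM in hybrids and 15.0, 17.2 and 3.23 CPM in U. ornatus (-3.28 ± 0.66, adjusted p = 0.00428). No hybrid reached any U. ornatus in either gene. At 36 °C their differences were -0.48 (0.534) and -1.04 (0.244), and no B or plasma cell marker was lower. PAX5, the identity factor of B cells, was lower, at -2.94 ± 0.73 (adjusted p = 0.0131) but not without I (-2.62, 0.0509) or L (-2.13, 0.0645). Without I, 2 of the B and plasma cell markers were called, and without N 3 were lower and 1 higher.

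Other immune lists had fewer calls. Of 13 T and NK cell markers 1 was lower (7.69% against 8.77% of all genes) and none higher (median -1.49). A positive difference was found in 1 of the 13. The T cell marker CD3E had 717 counts over the hybrids and 627 over the U. ornatus. The list's summed levels were 16.6, 32.0 and 8.46 CPM in hybrids and 34.4, 54.9 and 21.2 CPM in U. ornatus, which overlapped. Its called member was TCF7, a factor of T cell development, at 0.334, 0.911 and 0.594 CPM in hybrids and 3.63, 2.38 and 3.75 CPM in U. ornatus (-2.39 ± 0.69, adjusted p = 0.0258), a call that was lost without I (-2.10), X (-2.35), L (-2.31) or O (-2.27). None of 10 macrophage markers and none of 6 granulocyte markers passed, with medians of -0.57 and -0.89. Thrombocyte and erythrocyte markers had medians of -1.32 and -0.97. The macrophage sum was 387, 556 and 836 CPM in hybrids and 1223, 1194 and 441 CPM in U. ornatus, again with O in the range of the hybrids. No B cell, T and NK cell, macrophage or granulocyte marker in the table was at 0 counts over either lineage. For markers that were lower, fewer cells of their type in these livers and less RNA per cell cannot be told apart.

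Of 47 tested genes of autophagy and the lysosome 9 were lower in hybrids (19.1% against 8.77% of all genes) and 2 higher (4.26% against 9.65%). CTSK, cathepsin K, had 17.9, 35.9 and 42.8 CPM in hybrids and 324, 782 and 218 CPM in U. ornatus (-3.78 ± 0.47, adjusted p = 0.000215). CTSS, cathepsin S, which trims the MHC class II invariant chain, had 38.4, 82.2 and 61.5 CPM in hybrids and 413, 414 and 142 CPM in U. ornatus (-2.41 ± 0.41, adjusted p = 0.00156). Without N CTSK was at -3.08. Both were also called lower at 36 °C, at -3.00 (0.000597) and -1.70 (0.00965). HEXA, the alpha subunit of beta-hexosaminidase, which breaks down gangliosides, had 6.85, 8.99 and 10.9 CPM in hybrids and 56.0, 42.2 and 31.3 CPM in U. ornatus, without overlap (-2.27 ± 0.22, adjusted p = 4.04e-05). ULK1, the kinase that starts autophagy, had 19.6, 17.9 and 8.67 CPM in hybrids and 38.7, 36.6 and 48.5 CPM in U. ornatus (-1.42 ± 0.25, adjusted p = 0.00204). The lower genes numbered 14 without hybrid X.

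The series title speaks of DNA damage, and genes of double-strand break repair were called in both directions, 5 higher and 4 lower of 33 (15.2% and 12.1%, against 9.65% and 8.77% of all genes), with a median of -0.10. NBN, of the complex that senses double-strand breaks, had 39.1, 45.1 and 35.3 CPM in hybrids and 15.8, 14.0 and 13.5 CPM in U. ornatus (1.46 ± 0.17, adjusted p = 0.000141). ATM, the kinase that this complex recruits, had 48.4, 44.5 and 44.4 CPM in hybrids and 107, 108 and 116 CPM in U. ornatus (-1.27 ± 0.16, adjusted p = 0.000229). RAD51B, a protein of homologous recombination, had 2.13, 0.871 and 2.80 CPM in hybrids and 14.6, 19.3 and 16.9 CPM in U. ornatus (-3.12 ± 0.39, adjusted p = 0.000215). There was no overlap in any of the 3 genes, and at 36 °C the differences were 0.55, -1.01 and -3.75, all called. DCLRE1C, the nuclease Artemis of end joining, was lower, at -1.70 ± 0.34 (adjusted p = 0.00407). At 36 °C 2 genes of the list were higher and 12 lower, with a median of -0.79. Higher and lower genes numbered 2 and 7 without X, 3 and 4 without L, and 2 and 4 without N. In base and nucleotide excision repair 4 of 33 were higher (12.1% against 9.65% of all genes) and none lower. Among them was XPA, which verifies damaged sites, with 10.3, 10.8 and 12.8 CPM in hybrids and 6.08, 6.30 and 4.68 CPM in U. ornatus (0.99 ± 0.20, adjusted p = 0.00501). That list had 2 higher genes without K or O and 1 without N.

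Heat shock genes were called higher in 7 of 40 and lower in 1, with a median of 0.30. Those shares were 17.5% and 2.5%, against 9.65% and 8.77% of all genes. HSF1, the transcription factor of the heat shock response, had 29.9, 26.4 and 20.3 CPM in hybrids and 12, 10.3 and 9.32 CPM in U. ornatus (1.28 ± 0.20, adjusted p = 0.000938), and it was higher at 36 °C too, by 1.84 (7.33e-05). HSPB8, a small heat shock protein, had 43.9, 43.6 and 40.4 CPM in hybrids and 105, 90.4 and 80.3 CPM in U. ornatus (-1.11 ± 0.28, adjusted p = 0.0135). Neither gene overlapped between the lineages. HSP90AA1, the inducible cytosolic HSP90, had 403, 417 and 1694 CPM in hybrids and 627, 626 and 2467 CPM in U. ornatus, and HSPA8, the constitutive HSP70, had 62.6, 107 and 697 CPM in hybrids and 238, 140 and 646 CPM in U. ornatus. X and O were the highest of their lineages in both genes, and neither passed (-0.57 ± 0.91 and -0.24 ± 1.04, adjusted p = 0.707 and 0.898). Without X, 2 heat shock genes were higher, without L 2 and without N 3. HSPB1, another small heat shock protein, was at 1.67, 0.990 and 7.38 CPM in hybrids and 0.220, 0.136 and 0.843 CPM in U. ornatus (3.09 ± 0.79, adjusted p = 0.0148), and was not called without X (1.77, 0.0777), L (2.80, 0.0588) or N (2.66, 0.0616). Of 31 genes of stress in the endoplasmic reticulum, 1 was lower and none higher.

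Of 46 tested genes of amino acid breakdown, urea and uric acid 7 were higher in hybrids (15.2% against 9.65% of all genes) and 1 lower. MCCC2, of leucine breakdown, had 92, 92.5 and 55.2 CPM in hybrids and 26.3, 26.6 and 20 CPM in U. ornatus (1.72 ± 0.23, adjusted p = 0.000390). KYNU, of the kynurenine pathway from tryptophan, had 131, 124 and 88.2 CPM in hybrids and 44.6, 48.7 and 46.7 CPM in U. ornatus (1.29 ± 0.20, adjusted p = 0.000883). AMT, of the glycine cleavage system, had 189, 170 and 150 CPM in hybrids and 84.3, 90.2 and 42.0 CPM in U. ornatus (1.23 ± 0.30, adjusted p = 0.0124). Hybrid X was the lowest hybrid in all 3 genes, and still above every U. ornatus. The genes higher in the list numbered 13 without X, 4 without K and 3 without N.

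In glucose metabolism 6 of 29 genes were higher (20.7% against 9.65% of all genes) and none lower. PFKL, the liver phosphofructokinase of glycolysis, had 79.6, 69.5 and 33.8 CPM in hybrids and 29.2, 18.2 and 17.3 CPM in U. ornatus (1.5 ± 0.31, adjusted p = 0.00466). PGM1, which links glycogen to glycolysis, had 253, 218 and 154 CPM in hybrids and 94.4, 93.9 and 53.9 CPM in U. ornatus (1.37 ± 0.27, adjusted p = 0.00426). Both were higher at 36 °C as well, by 1.49 (0.00438) and 0.89 (0.0328), and 2 of the list's genes were called without N. In haem and iron metabolism 5 of 28 were higher and 2 lower (17.9% and 7.14%, against 9.65% and 8.77% of all genes). FECH, which inserts iron to form haem inside mitochondria, had 224, 184 and 113 CPM in hybrids and 55.5, 58.3 and 31.8 CPM in U. ornatus (1.84 ± 0.34, adjusted p = 0.00274). The higher genes of that list numbered 8 without X, 3 without I or L, 2 without K or N, and 1 without O.

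Lipid lists had few calls, and of 21 conjugation and aldehyde enzymes 2 were higher and 2 lower (9.52% each). Over all genes, 9.65% were higher and 8.77% lower. GPAM, which starts triglyceride synthesis, had 24.4, 23.6 and 26.6 CPM in hybrids and 13, 12.5 and 10.2 CPM in U. ornatus (1.06 ± 0.16, adjusted p = 0.000883), 1 of 2 higher among 24 genes of lipid synthesis. At 36 °C its difference was 0.17 (0.486). Of 33 genes of fatty acid oxidation 1 was higher and 1 lower, and without hybrid X 11 were higher and 2 lower. ALDH7A1, an aldehyde dehydrogenase of lysine breakdown, had 1462, 2162 and 549 CPM in hybrids and 445, 329 and 142 CPM in U. ornatus (2.19 ± 0.50, adjusted p = 0.00892). EPHX1, the microsomal epoxide hydrolase, had 21.0, 14.2 and 8.81 CPM in hybrids and 56.2, 104 and 31.5 CPM in U. ornatus (-2.12 ± 0.43, adjusted p = 0.00420). Neither overlapped, and both kept their direction at 36 °C, at 1.59 (0.0356) and -2.39 (0.00192). Genes of cytochrome P450 enzymes were not analysed here. Of 35 plasma protein genes 1 was higher and none lower, and of 20 complement genes 1 was higher, C8G, with 49.7, 55.4 and 8.39 CPM in hybrids and 6.48, 6.06 and 4.68 CPM in U. ornatus (2.72 ± 0.56, adjusted p = 0.00490). Without hybrid X, 7 plasma protein and 5 complement genes were higher.

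Markers of stellate cells and fibroblasts were higher in hybrids, by 12 of 22 tested (54.5% against 9.65% of all genes) with none lower. Their median was 1.76, and the largest values were those of hybrid X. Their summed level was 1174, 935 and 5053 CPM in hybrids (I, K, X) and 695, 521 and 589 CPM in U. ornatus. PDGFRA and PDGFRB, receptors for platelet-derived growth factor that these cells carry, had 45.1, 41.5 and 152 CPM and 20.9, 20 and 37.6 CPM in hybrids, against 11.5, 8.99 and 19.5 CPM and 10.4, 6.88 and 7.35 CPM in U. ornatus. COL6A3, a chain of type VI collagen, had 156, 103 and 232 CPM in hybrids and 42.6, 24.9 and 27.6 CPM in U. ornatus. All 3 hybrids were above all 3 U. ornatus in these genes (2.58 ± 0.43, 1.67 ± 0.29 and 2.37 ± 0.49, adjusted p = 0.00128, 0.00187 and 0.00510), and the calls held without X, where PDGFRA was at 1.72, PDGFRB at 1.33 and COL6A3 at 2.04. COL1A1, of type I collagen, was named after its values were seen. It had 16.3, 9.58 and 336 CPM in hybrids and 4.03, 1.63 and 2.86 CPM in U. ornatus (5.41 ± 1.24, adjusted p = 0.00910), and 2.20 without X (0.0611). Without X the list had 7 higher and 1 lower, with a median of 1.13, and in the fit of these 6 libraries alone it had 2 higher. At 36 °C it had 2 higher and 1 lower, with a median of 0.84.

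Most calls among genes of the cell cycle rested on hybrid X. Of 49 tested, 13 were higher (26.5% against 9.65% of all genes) and none lower, with a median of 1.66. Without X, however, 2 were higher and 1 lower, and the median was 0.18. PLK1, a kinase of mitosis, was named after its values were seen, and had 1.25, 2.10 and 32.8 CPM in hybrids (I, K, X) and 0.953, 0.954 and 0.796 CPM in U. ornatus, a difference of 3.73 ± 1.05 (adjusted p = 0.0231) and of 0.91 without X (0.398). Without L, N or O 3, 4 and 3 genes were called, and PLK1 was not (3.77, 3.77 and 3.66). KIF4A, described above, was higher in I and K as well. So was CCNB2, named after its values were seen, with X the lowest hybrid. It had 12.3, 12.3 and 5.73 CPM in hybrids and 5.31, 2.52 and 4.82 CPM in U. ornatus (1.26 ± 0.36, adjusted p = 0.0240). At 36 °C CCNB2 was at 1.78 (0.00420).

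**Figure D5:**
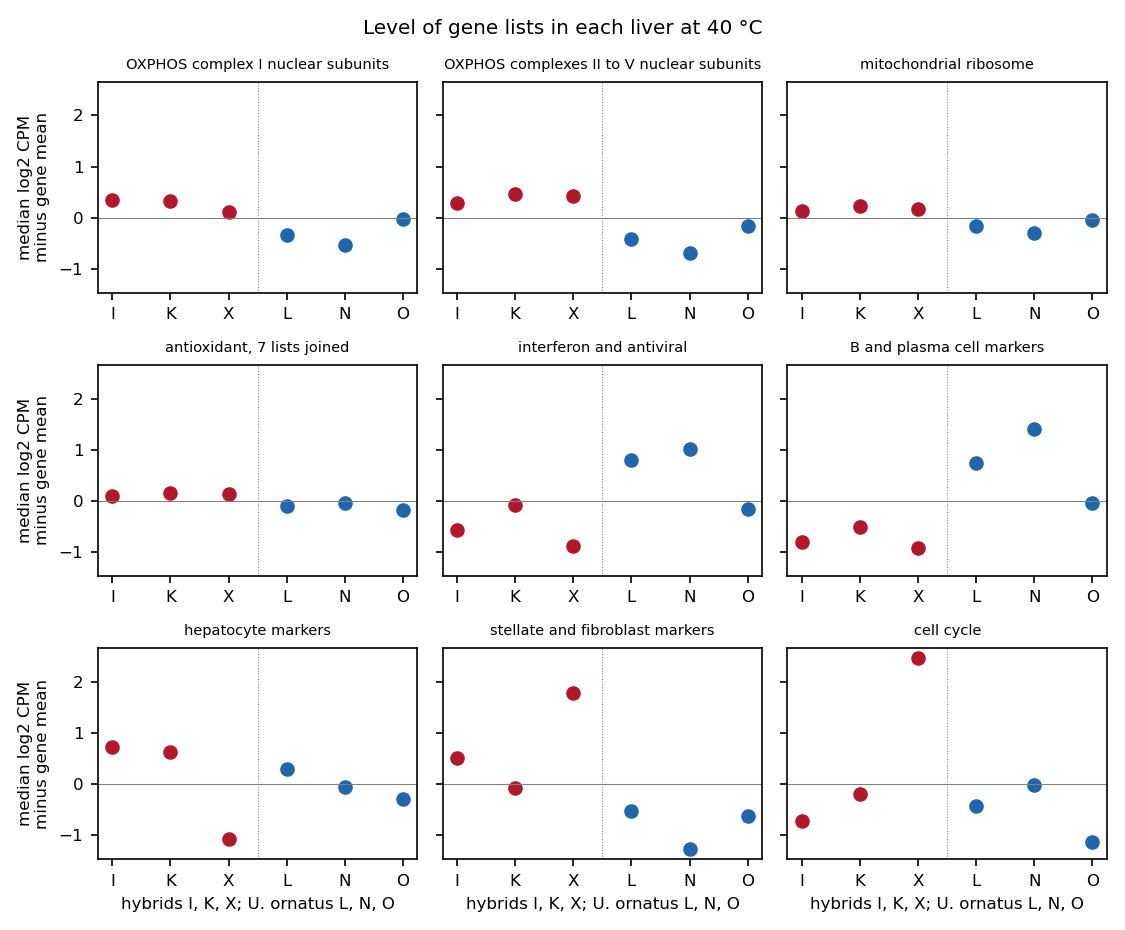
Median over the genes of a list of log2 CPM minus the gene's mean over the 6 livers, for hybrids I, K and X (red, left of the dotted line) and U. ornatus L, N and O (blue, right), for 9 lists. Both lists of respiratory chain subunits lie above 0 in all 3 hybrids and below in all 3 U. ornatus, while cell cycle genes are at 2.48 in X and at or below -0.02 in the other 5, and hepatocyte markers are lowest in X, at -1.07.

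Markers of skeletal muscle were called lower in hybrids in 3 of 14 (21.4% against 8.77% of all genes) and higher in none. The list did not move as a whole, since 5 of the 14 had positive differences (median -0.98). MYBPC2 had 324 counts over the hybrids and 207 over the U. ornatus, and TTN had 102 and 68. RYR1, the calcium release channel of muscle, had 2.01, 2.30 and 1.71 CPM in hybrids and 17.0, 13.2 and 40.6 CPM in U. ornatus (-3.55 ± 0.52, adjusted p = 0.000649), without overlap. ATP2A1, the calcium pump of fast fibres, had 0.0836, 0 and 0.0699 CPM in hybrids and 15.8, 3.71 and 2.76 CPM in U. ornatus (-7.04 ± 1.67, adjusted p = 0.0105). Without O RYR1 was at -2.90, and without L ATP2A1 was at -5.84. At 36 °C neither gene was called, at -0.31 (0.688) and 2.66 (0.137), and 2 muscle markers were higher in hybrids. The list's summed level was 12.5, 11.9 and 19.1 CPM in hybrids and 47.0, 30.2 and 64.3 CPM in U. ornatus at 40 °C. RYR1 alone held 40.6 of the 64.3 CPM in O. MYL1, CACNA1S and PVALB were at 0 counts in hybrids and TNNC1 and CACNA1S in U. ornatus.

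Of the bile duct markers 3 of 10 were higher (30% against 9.65% of all genes). Among them were the epithelial keratins KRT8 (547, 503 and 849 CPM in hybrids, 271, 255 and 245 CPM in U. ornatus, 1.30 ± 0.30, adjusted p = 0.00992) and KRT18 (133, 127 and 338 CPM in hybrids, 77.1, 58.4 and 69.8 CPM in U. ornatus, 1.54 ± 0.36, adjusted p = 0.00972). X was the highest in both, and without X KRT18 was at 0.94. The third called gene was SLC4A2. SOX9, CFTR, AQP1, EPCAM, SPP1, ANXA4 and CLDN10 did not pass. Of the 10 genes 9 had positive differences, while CLDN10 had 4 counts over the hybrids and 59 over the U. ornatus. KRT7 and KRT19 were not in the table, and whether bile duct cells differed was not tested. Of 9 thrombocyte markers 2 were lower, 22.2% against 8.77% of all genes (4 without O, 1 without I, K or L and 0 without N). None of 10 erythrocyte markers was called, and all had negative differences. Of 21 endothelial markers 2 were higher and 1 lower (9.52% and 4.76%, against 9.65% and 8.77% of all genes). The markers of gut, pancreas and lung had 437, 111 and 36.1 CPM in sum in hybrids and 14.5, 20.8 and 30.8 CPM in U. ornatus, with none of 6 called. Hybrid I held most of that signal in CELA1 and CEL, pancreatic enzymes, at 251 and 178 CPM.

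The 3 genes with the smallest p in the test of temperature dependence did not pass. TPP1, a lysosomal peptidase, had 24.4, 29.4 and 21.7 CPM in hybrids and 21.6, 15.5 and 17.6 CPM in U. ornatus at 40 °C, and 31.8, 25 and 32.9 CPM in hybrids and 8.0, 6.73 and 7.01 CPM in U. ornatus at 36 °C. The hybrid difference was 0.47 at 40 °C and 2.04 at 36 °C (adjusted p of the change = 0.0717). LRFN5, a neuronal adhesion protein, had 13.6, 10.1 and 10.6 CPM in hybrids and 2.64, 4.02 and 2.62 CPM in U. ornatus at 40 °C, and 20.6, 17.0 and 17.0 CPM in hybrids and 0.758, 0.553 and 0.310 CPM in U. ornatus at 36 °C (1.88 at 40 °C and 5.07 at 36 °C, adjusted p of the change = 0.0717). TRIM24, a co-regulator of nuclear receptors, had 28.6, 25.4 and 27.4 CPM in hybrids and 45.5, 92.2 and 89.6 CPM in U. ornatus at 40 °C, and 30.0, 31.0 and 25.8 CPM in hybrids and 15.3, 17.5 and 22.6 CPM in U. ornatus at 36 °C. In all 3 genes every U. ornatus at 40 °C lay above every U. ornatus at 36 °C. The genes were chosen by the p of the change, so that separation is not independent of the choice. For LRFN5 every hybrid at 40 °C also lay below every hybrid at 36 °C. Hybrids of the 2 temperatures overlapped for TPP1 and TRIM24. TRIM24 had differences of -1.48 at 40 °C (adjusted p = 0.00165) and 0.65 at 36 °C (0.0838), and the change did not pass (0.0869).

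The hybrids at 40 °C were set beside U. graciosus at 40 °C, the other parent species, in a comparison that shares the same hybrids. There, 20 of 15856 genes (0.126%) were called, 9 of them higher (0.0568%) and 11 lower (0.0694%) in hybrids, against 2920 (18.4%) for U. ornatus. A scale was set from 0, the U. ornatus mean at 36 °C, to 1, the U. graciosus mean at 36 °C. An animal's position was the median over 1824 genes chosen for a difference between the parents at 36 °C, so positions at 40 °C include any change with temperature. Hybrids I, K and X stood at 0.954, 0.944 and 0.764 and the U. ornatus at 40 °C at 0.143, 0.0892 and 0.189. The 3 U. graciosus at 40 °C stood at 0.928, 0.938 and 0.954. SOD3 had 107, 78.1 and 66.7 CPM in U. graciosus, beside 24.4, 50.4 and 71.8 CPM in hybrids and 413, 353 and 404 CPM in U. ornatus. PRDX6 had 66.9, 64.6 and 68.7 CPM in U. graciosus, beside 149, 134 and 117 CPM in hybrids and 66.9, 43.8 and 62.0 CPM in U. ornatus. Hybrid values were thus nearer to U. graciosus than to U. ornatus for SOD3, while for PRDX6 every hybrid lay above every animal of both parents at 40 °C, with a difference from U. graciosus of 1.0 that did not pass (adjusted p = 0.144). None of the 64 antioxidant genes tested was called against U. graciosus in either direction, and their median difference was 0.08.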

How the data were processed

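The authors deposited raw counts per gene for 18 liver libraries, 22773 genes in all, of which 9041 have placeholder names. Per the submitters' processing notes, reads were trimmed with Trim Galore 0.6.4, aligned with STAR, counted with Subread and tested with DESeq2, and per the series' design text they were aligned to the genome of Sceloporus undulatus. No source used here states the genome build, annotation or strand setting, so overlapping and antisense genes and close copies may share reads. Of the counts from 1 to 20 in the 6 libraries, 71.8% to 75.9% were even, so a count may not equal 1 fragment.

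The filterByExpr function left 15856 genes (grouping by lineage and temperature). The quasi-likelihood test of edgeR 4.0.16 (R 4.3.3), with TMM scaling, the robust option and 1 mean per group, used all 18 libraries. The contrasts were hybrids minus U. ornatus at 40 °C, the same at 36 °C, the difference of these, and hybrids minus U. graciosus at 40 °C. Adjusted p are Benjamini-Hochberg over all genes, and called means under 0.05. Differences are log2 fold changes, and CPM is relative to the scaled total. The SE is the absolute difference divided by the square root of the test's F statistic, and it is approximate for genes near 0 counts. That SE includes the spread between animals, while the floor of 3 counts covers counting error only.

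Alternatives were DESeq2 1.42.0, limma 3.58.1 voom with quality weights, RLE factors, no filter, a minimum of 5 CPM in 3 samples, a log2 threshold of 1, the groups compared alone, halved counts and each library left out. Leaving out X and O together was chosen after seeing the data. The 50 gene lists and the comparison were chosen with earlier results of these data known. Named genes needed a symbol and 1 CPM or more on average. They were the 12 largest differences and 6 smallest p in each direction, the 4 called genes with the smallest p in each list, the 2 most abundant markers of each cell type, the 3 smallest p of the change with temperature, and 11 antioxidant and chaperone genes regardless of p. Not every such gene is described, and some withheld results are not reported here. The pipeline was tested on simulated data with the same spread in every group for a given gene. That test does not cover groups of unequal spread.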

Additional observations from a re-analysis of the deposited data

How the results depend on the processing

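No paired analysis was possible because no replicate letter is shared between groups. The 2920 genes called at 40 °C became 4805 with limma voom with quality weights, 541 with a log2 threshold of 1, 497 with only the groups compared in the fit, and 1682 to 3222 with 1 animal left out, and the 2925 at 36 °C became 4448 with limma voom, 554 with the log2 threshold, 2959 with only the groups compared and, with 1 animal left out, 1685 to 2274. The 9 antioxidant genes became 15 with DESeq2, 25 with limma voom, 2 with the log2 threshold and 3 with only the groups compared. They became 14 without X and O together and 6 to 18 with 1 animal left out. Over all genes DESeq2 called 3986 at 40 °C. With limma voom the antioxidant share was above that of all genes. The 0 genes whose difference changed with temperature became 93 with DESeq2, 1 with limma voom, 1 without X and O together and 0 to 2 with 1 animal left out. The causes were not tested, except that a threshold on size gives fewer calls by construction. Of the 113 named genes called, 89 kept their call without any 1 of the 6 animals. None of the 113 reversed under any alternative run. With only the groups compared in the fit, however, 57 named genes lost their call, and 60 did with the log2 threshold. Among the 57 were IFNAR1, CIITA, CTSS, PRDX5, PRDX6, NDUFS6, FECH and TNC, which kept their call with any 1 animal left out. HSPA8 and HSP90AA1, which were not called, ran from -1.99 to 0.62 and from -1.59 to 0.43 with 1 animal left out. Among the alternative runs the median difference of all genes at 40 °C moved most without X, by -0.08. With RLE factors, the other scaling, it moved by -0.002. Genes at a few counts are limited by depth, lowest in O, and 3 animals a side limit all calls.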

Other observations

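Genes of the circadian clock, a loop of transcription factors that sets daily rhythms, were called in both directions, 2 higher and 3 lower of 21 tested. The shares were 9.52% and 14.3%, against 9.65% and 8.77% of all genes. Members of the list are described here after their values were seen. ARNTL2, a partner of CLOCK, had 54.2, 55.1 and 66.3 CPM in hybrids (I, K, X) and 22.2, 20.6 and 27.9 CPM in U. ornatus (L, N, O), a log2 difference of 1.31 ± 0.27 (SE, n = 3 each, edgeR adjusted p = 0.00466). TEF, an output factor of the clock, had 50.4, 49.8 and 24.2 CPM in hybrids and 89.0, 109 and 65.2 CPM in U. ornatus (-1.08 ± 0.27, adjusted p = 0.0137). The lineages did not overlap in ARNTL2 or TEF. TEF was not called without N (-0.89, 0.0631). At 36 °C ARNTL2 was at 0.92 (0.0257) and TEF at -0.65 (0.105). The hours at which the livers were taken were not given in the sources used here.

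Of 33 proteasome genes 3 were higher (9.09% against 9.65% of all genes) and none lower. PSMB4, a subunit of the proteasome core, had 74.4, 66.5 and 81.4 CPM in hybrids and 33.1, 27.9 and 43.3 CPM in U. ornatus (1.09 ± 0.27, adjusted p = 0.0122), without overlap, and was not called without N (0.96, 0.0566). Without N no proteasome gene was called, and at 36 °C PSMB4 was at 0.29 (0.473).

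A few genes set the hybrids at 40 °C apart from both parent species at 40 °C, in comparisons that share the hybrids, and were named after their values were seen. DNMT1, the methyltransferase that maintains DNA methylation, had 55.4, 101 and 73.2 CPM in hybrids, beside 18.3, 19.2 and 19.2 CPM in U. graciosus and 33.5, 39.9 and 42.4 CPM in U. ornatus. Its difference was 2.02 ± 0.23 from U. graciosus (adjusted p = 0.00225) and 0.99 ± 0.22 from U. ornatus (0.00740). HPDL, a mitochondrial enzyme, had 10.3, 5.78 and 1.96 CPM in hybrids, beside 0.738, 0.273 and 0.133 CPM in U. graciosus and 0.147, 0.136 and 0.0936 CPM in U. ornatus (3.98 ± 0.64 and 5.51 ± 0.70, adjusted p = 0.0186 and 0.000246), and without I the difference from U. ornatus was 4.87. GALNT14, which starts O-glycan chains, went the other way, at 1.5, 0.238 and 1.12 CPM in hybrids, beside 34.5, 33.1 and 9.87 CPM in U. graciosus and 25, 37.0 and 17.8 CPM in U. ornatus (-4.75 ± 0.74 and -4.80 ± 0.74, adjusted p = 0.0166 and 0.000883). All 3 hybrids lay outside the range of the 6 parent animals in these 3 genes, a separation that is not independent of their choice. Against U. graciosus 20 of 15856 genes (0.126%) were called in all.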
